A study of Homo sapiens with 12 samples.

Results

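The expressed ZNF zinc finger genes were taken as every gene whose symbol is ZNF followed only by digits and whose brightest probe averaged more than 7 log2 units over the 12 arrays. Of 443 such symbols on the array, 205 passed (46.3%), among 20046 genes in all. The other 238 ZNF genes lay at or under that mean. The level chose the members and is given below as a description, whereas no difference between groups was itself used to choose them. The mean includes the R5020 arrays, however, so its own response can carry a gene near 7 across the level in either direction. At the edge, ZNF331 (7.01), ZNF174 (7.02) and ZNF514 (7.02) lay just inside, and ZNF688 (6.99), ZNF28 (6.97) and ZNF416 (6.97) just outside.

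Most genes with this symbol encode C2H2 zinc finger proteins, in which fingers arranged in tandem each read a few bases of DNA. Many carry a KRAB domain, which binds the corepressor TRIM28 and through it the histone H3 lysine 9 methyltransferase SETDB1, and such proteins are known for silencing transposable elements. The family expanded by local gene duplication, so its genes lie in clusters, the densest of them on chromosome 19. The symbol is not a guide to function in every case. ZNF185 is a LIM domain protein, ZNF598 a ubiquitin ligase that acts on stalled ribosomes, ZNF622 a factor in maturation of the large ribosomal subunit, and ZNF207 a spindle and kinetochore protein.

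The samples were T47D-Y cells, which derive from the human breast cancer line T47D but make no progesterone receptor (PR), stably carrying 1 of 3 constructs in the pIRES-neo3 vector. KR cells expressed PR-B with the K388R change, which removes the lysine that accepts SUMO. WT cells expressed wild-type PR-B, and PR-null cells the empty vector. The paper expanded single-cell clones, and the labels do not name the clones used. Clone and receptor therefore cannot be told apart between lines. All cells were starved of serum and then received R5020, a synthetic progestin, or ethanol vehicle for 6 h, giving 6 groups of 2 Illumina bead arrays. Values are log2 intensities, and a difference of 1 between 2 groups is therefore a 2-fold difference in signal. A gene was called higher or lower where its log2 difference exceeded 0.6 (1.52-fold) with a limma adjusted p under 0.01. Values after ± are standard errors of a difference unless SD is written. Both they and the p-values measure only the spread between these duplicate arrays, whose number limits the precision. For each probe limma draws that spread toward a value common to all probes, with 37.1 prior and 6 residual degrees of freedom.

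Replicate arrays correlated at 0.987 to 0.992 over the 205 genes, with a pooled SD between replicates of 0.0940 to 0.124. No array put any of these genes at or under the background limit of 6.00, set from olfactory receptor probes. PGR, the gene of the receptor, checked only which arrays were PR-null. It read 9.78 and 9.59 in KR cells with R5020 and 8.86 and 8.96 with vehicle. In WT cells it read 7.66 and 7.51 with R5020 and 8.49 and 8.62 with vehicle, and it read 5.38 to 5.46 on the 4 PR-null arrays. Its level cannot check the KR against the WT labels, or R5020 against vehicle. With R5020 PGR stood higher in KR than in WT cells, and its part in the differences between these lines was not tested. All 9 luminal epithelial markers measured averaged above 7, and none of the 4 leukocyte, 3 endothelial and 5 fibroblast markers did. Above the background limit of 6.00 were 2 leukocyte markers (at most 6.12), 1 fibroblast marker (6.29) and 0 endothelial markers. With R5020, 3 luminal markers fell in KR cells and 4 in WT cells, among them SPDEF (-1.26 in KR, -1.57 in WT) and ESR1 (-1.47 in KR, -1.39 in WT), and their part in the values below was not tested.

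The 205 genes were set against the other genes with a mean above 7 to see how rises and falls were balanced. After R5020, ZNF genes were called lower more often than higher in both receptor lines, while other genes of the same range were called higher more often than lower. In KR cells 2 ZNF genes were higher and 8 lower, where 2.7% of all genes tested were higher and 1.38% lower. In WT cells 4 were higher and 13 lower, where 3.3% of all genes were higher and 2% lower. As shares of the 205 genes these were 0.976% higher and 3.90% lower in KR cells, against 4.74% (380) and 2.84% (228) of the 8019 other genes above 7. In WT cells they were 1.95% higher and 6.34% lower, against 5.85% (469) and 4.09% (328) of the other genes. At an unadjusted p under 0.05 by limma and no minimum difference, both sets leaned lower, with 26 ZNF genes higher and 45 lower in KR cells and 36 higher and 48 lower in WT cells, against 1205 higher and 1432 lower in KR cells and 1572 higher and 1767 lower in WT cells among the other genes. At an adjusted p under 0.05 by limma and no minimum difference, the sets again leaned in opposite directions. There 13 ZNF genes were higher and 24 lower in KR cells, and 19 higher and 31 lower in WT cells. Among the other genes 764 were higher and 686 lower in KR cells, and 1051 higher and 984 lower in WT cells. The medians showed no contrast between the sets. The median log2 difference of the ZNF genes was -0.03 in KR cells and -0.03 in WT cells, and that of the other genes -0.03 in KR cells and -0.04 in WT cells. Most ZNF genes moved little, since 157 of 205 differed by less than 0.3 in KR cells and 146 in WT cells. This was no trait of the ZNF genes, as 6133 of the 8019 other genes did so in KR cells and 5567 in WT cells.

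The same counts were taken by level. Between 7 and 8 log2 units, 0 of 110 ZNF genes were higher and 3 lower in KR cells, against 5.43% higher and 3.31% lower among 2264 other genes. There, 2 ZNF genes were higher and 7 lower in WT cells, against 6.23% and 5.12% of the other genes. Between 8 and 9, 2 of 58 were higher and 2 lower in KR cells, and 2 higher and 4 lower in WT cells. As shares these were 3.45% higher and 3.45% lower in KR cells and 3.45% higher and 6.90% lower in WT cells, against 4.90% and 3.69% of 2143 other genes in KR cells and 6.63% and 5.27% in WT cells. Above 9, 0 of 37 were higher in either line, with 3 lower in KR cells (8.11%) and 2 in WT cells (5.41%). Of 3612 other genes in that range 4.21% were higher and 2.05% lower in KR cells, and 5.15% higher and 2.74% lower in WT cells. In all 3 ranges and both lines the share of ZNF genes called higher lay below that of the other genes. The share called lower lay above that of the other genes in all 3 ranges in WT cells, but only above 9 in KR cells, where it was below that of the other genes from 7 to 8 (2.73%) and from 8 to 9.

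Falls were found mainly on chromosome 19, which holds 93 of the 205 genes. There 0 genes were called higher and 6 lower in KR cells, and 1 higher and 10 lower in WT cells. The falls were 6.45% of these genes in KR cells and 10.8% in WT cells. At an unadjusted p under 0.05 by limma, 7 were higher and 26 lower in KR cells, and 13 higher and 29 lower in WT cells. On all other chromosomes together, 2 of 112 ZNF genes were higher and 2 lower in KR cells, and 3 higher and 3 lower in WT cells. Genes of chromosome 19 that are no ZNF members also had more falls than rises. Of 433 such genes above 7, 6 were higher and 9 lower in KR cells, and 5 higher and 21 lower in WT cells. Their falls were 2.08% in KR cells and 4.85% in WT cells, and their rises 1.39% and 1.15%. Among other genes above 7 on any chromosome, falls were 2.84% in KR cells and 4.09% in WT cells, and rises 4.74% and 5.85%. In KR cells the share of falls among the 433 thus lay below that of other genes. At an unadjusted p under 0.05, 39 of them were higher and 76 lower in KR cells, and 48 higher and 119 lower in WT cells, with medians over the 433 of -0.07 in KR cells and -0.10 in WT cells. The medians of the chromosome 19 ZNF genes were -0.08 in KR cells and -0.06 in WT cells.

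**Figure D1:**
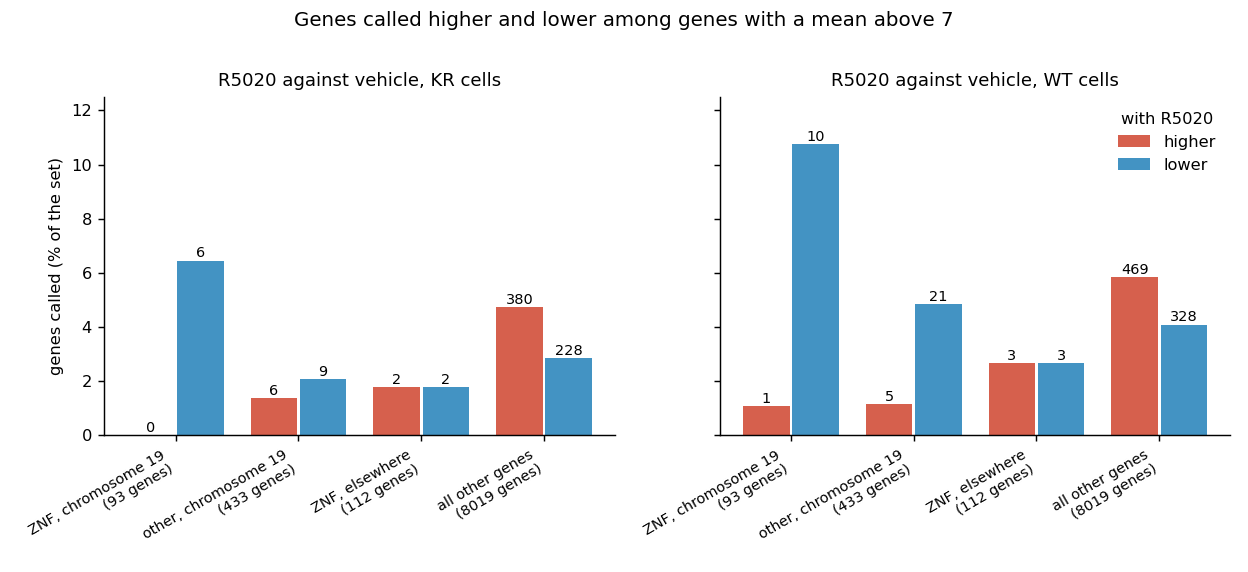
Share of genes called higher (red) and lower (blue) with R5020 against vehicle, as percent of each set of genes with a mean above 7 log2 units, in KR cells (left) and WT cells (right), with the counts above the bars. The set of all other genes includes those of chromosome 19. Among ZNF genes of chromosome 19 the blue bars are the tallest, with 6 lower in KR cells and 10 in WT cells, and among all other genes the red bars are the taller, with 380 and 469 higher.

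ZNF175, a KRAB zinc finger gene also known as OTK18, fell the most in both lines. It read 6.92 and 6.97 in KR cells with R5020, against 8.60 and 8.46 with vehicle. In WT cells it read 6.38 and 6.33 with R5020, against 8.63 and 8.46 with vehicle, and PR-null cells gave 8.30 and 8.12 with R5020 and 8.15 and 8.06 with vehicle. All 4 R5020 arrays of the receptor lines lay below every other array, and those of WT cells came within 0.4 log2 units of the background limit. The difference was -1.58 ± 0.111 in KR cells (adjusted p = 2.67e-15) and -2.19 in WT cells (4.57-fold, adjusted p = 4.23e-20). The fall was larger in WT cells by 0.61 ± 0.157, which missed the threshold for the difference between the lines (adjusted p = 0.0387).

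ZNF613 was next. It read 9.25 and 9.27 in KR cells with R5020, against 10.02 and 10.24 with vehicle, and 8.27 and 8.15 in WT cells with R5020, against 9.86 and 9.62 with vehicle. In PR-null cells it read 9.80 and 9.79 with R5020, against 9.71 and 9.87 with vehicle. The R5020 arrays of both receptor lines stood below their vehicle arrays without overlap, and those of WT cells below those of KR cells. The log2 difference was -0.88 ± 0.114 in KR cells (adjusted p = 1.14e-07) and -1.53 in WT cells (2.88-fold, adjusted p = 1.57e-14). A second ZNF613 probe lay under the background limit at a mean of 5.77 and gave -0.12 in KR cells and -0.19 in WT cells, and with the mean of all probes in place of the brightest the KR difference was -0.50 and was not called.

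ZNF350 encodes ZBRK1, a KRAB protein that binds BRCA1 and represses GADD45A. It read 7.73 and 7.66 in KR cells with R5020, against 8.49 and 8.60 with vehicle, and 7.12 and 7.11 in WT cells with R5020, against 8.30 and 8.01 with vehicle. The groups did not overlap in either line, while the 4 PR-null arrays lay between 8.34 and 8.67. The difference was -0.85 ± 0.118 in KR cells (adjusted p = 5.28e-07) and -1.04 in WT cells (adjusted p = 3.42e-09).

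ZNF823 read 7.47 and 7.58 in KR cells with R5020, against 8.49 and 8.31 with vehicle, and 7.10 and 7.16 in WT cells with R5020, against 8.22 and 8.19 with vehicle. It fell by 0.88 ± 0.111 in KR cells and by 1.08 in WT cells. Its second probe, at a mean of 7.79, gave -0.68 in KR cells and -0.81 in WT cells, both with the same sign as the first. ZNF467, whose mouse counterpart promotes adipocyte differentiation, read 8.87 and 8.83 in KR cells with R5020, against 9.40 and 9.75 with vehicle. In WT cells it read 8.67 and 8.54 with R5020, against 9.73 and 9.65 with vehicle. The log2 difference was -0.72 ± 0.121 in KR cells and -1.08 in WT cells, and without KR vehicle replicate 2 the KR difference was -0.54 and was not called. ZNF615 read 8.32 and 8.25 in KR cells with R5020, against 8.95 and 8.89 with vehicle, and fell by 0.64 ± 0.112 there and by 1.07 in WT cells. Thus 6 genes (ZNF175, ZNF613, ZNF350, ZNF823, ZNF467 and ZNF615) were called lower in both lines.

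The remaining falls were called in 1 line each. In WT cells they were ZNF616 (-0.97), ZNF432 (-0.81), ZNF827 (-0.79), which recruits the NuRD complex to telomeres, ZNF841 (-0.72), ZNF558 (-0.70), ZNF627 (-0.67) and ZNF165 (-0.65), a SCAN domain gene known as a testis antigen in tumors. The last 3 lie outside the rule for named genes, which took the 10 largest falls, and were added after their values were seen. All 7 had a negative difference in KR cells as well, between -0.58 and -0.38. Leaving out a single array ended the call of ZNF841 (-0.56 without WT R5020 replicate 1), ZNF165 (-0.59 without WT vehicle replicate 2) and ZNF627 (-0.56 without the same array). The second probe of ZNF627, at a mean of 7.41, gave -0.44 in WT cells. In KR cells only ZNF217 and ZNF433 were added, with -0.45 and -0.53 in WT cells.

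ZNF217, an oncogene of the amplified region 20q13 in breast cancer whose protein binds the corepressors CtBP and CoREST, read 10.19 and 9.76 in KR cells with R5020, against 10.69 and 10.70 with vehicle. In WT cells it read 10.18 and 10.20 with R5020, against 10.61 and 10.66 with vehicle. The KR difference was -0.72 ± 0.117 (adjusted p = 1.1e-05), and without KR R5020 replicate 2, the lower of the pair, it was -0.51 and was not called. In WT cells the adjusted p was 0.00723, and the size stayed under 0.6. ZNF433 read 7.47 and 7.43 in KR cells with R5020, against 8.01 and 8.09 with vehicle. Its difference of -0.60 ± 0.113 lay at the edge of the call, and it lay between -0.58 and -0.56 and was not called without KR R5020 replicate 2, without KR vehicle replicate 2, after cyclic loess, after normexp background correction or after centring on the other genes.

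Rises were fewer. ZNF189, a C2H2 gene of chromosome 9, was the only one called higher in both lines. It read 8.74 and 8.93 in KR cells with R5020, against 7.90 and 7.76 with vehicle, and 8.57 and 8.61 in WT cells with R5020, against 7.49 and 7.73 with vehicle. PR-null arrays gave 7.53 and 7.68 with R5020 and 7.70 and 7.51 with vehicle. It rose by 1.00 ± 0.115 in KR cells (adjusted p = 5.21e-09) and 0.98 in WT cells (adjusted p = 8.11e-09), or 2.01-fold in KR cells and 1.97-fold in WT cells. Its second probe lay under the background limit, at 5.53, and with the mean of both probes neither line was called (0.46 in KR cells and 0.42 in WT cells).

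ZNF26 was called in KR cells alone. It read 10.38 and 10.27 in KR cells with R5020, against 8.48 and 8.44 with vehicle. In WT cells it read 9.05 and 9.10 with R5020, against 8.49 and 8.50 with vehicle, and in PR-null cells 8.37 and 8.46 with R5020, against 8.41 and 8.46 with vehicle. Both receptor lines thus stood above their vehicle arrays, and KR cells above WT cells. It rose by 1.86 ± 0.108 in KR cells (3.64-fold, adjusted p = 4.42e-18). In WT cells the difference was 0.58 (adjusted p = 8.7e-05), just under the required size. The difference between the effects, 1.28 ± 0.152 log2 units (adjusted p = 2.05e-07), was the only one called among the 205 genes.

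In WT cells 3 further genes were higher. ZNF761 read 7.25 and 7.33 in KR cells with R5020, against 6.71 and 6.84 with vehicle, and 7.58 and 7.72 in WT cells with R5020, against 6.62 and 6.78 with vehicle. It rose by 0.95 ± 0.111 in WT cells (adjusted p = 7.16e-09), and its KR difference of 0.51 was under the size required. The R5020 arrays of both lines raised its mean to 7.09, so the rise had a part in ZNF761 passing the level. ZNF282, also known as HUB1 and first found as a protein binding the U5 region of human T-cell leukemia virus, rose by 0.69 ± 0.113 in WT cells, with 8.45 and 8.64 with R5020 against 7.86 and 7.85 with vehicle. ZNF319 rose by 0.63 ± 0.112, with 7.94 and 8.12 with R5020 against 7.41 and 7.38 with vehicle. Without WT R5020 replicate 2 neither was called (0.59 for ZNF282 and 0.54 for ZNF319), and the count of rises in WT cells was 2. After normexp background correction the ZNF319 difference was just under 0.6 and was not called.

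**Figure D2:**
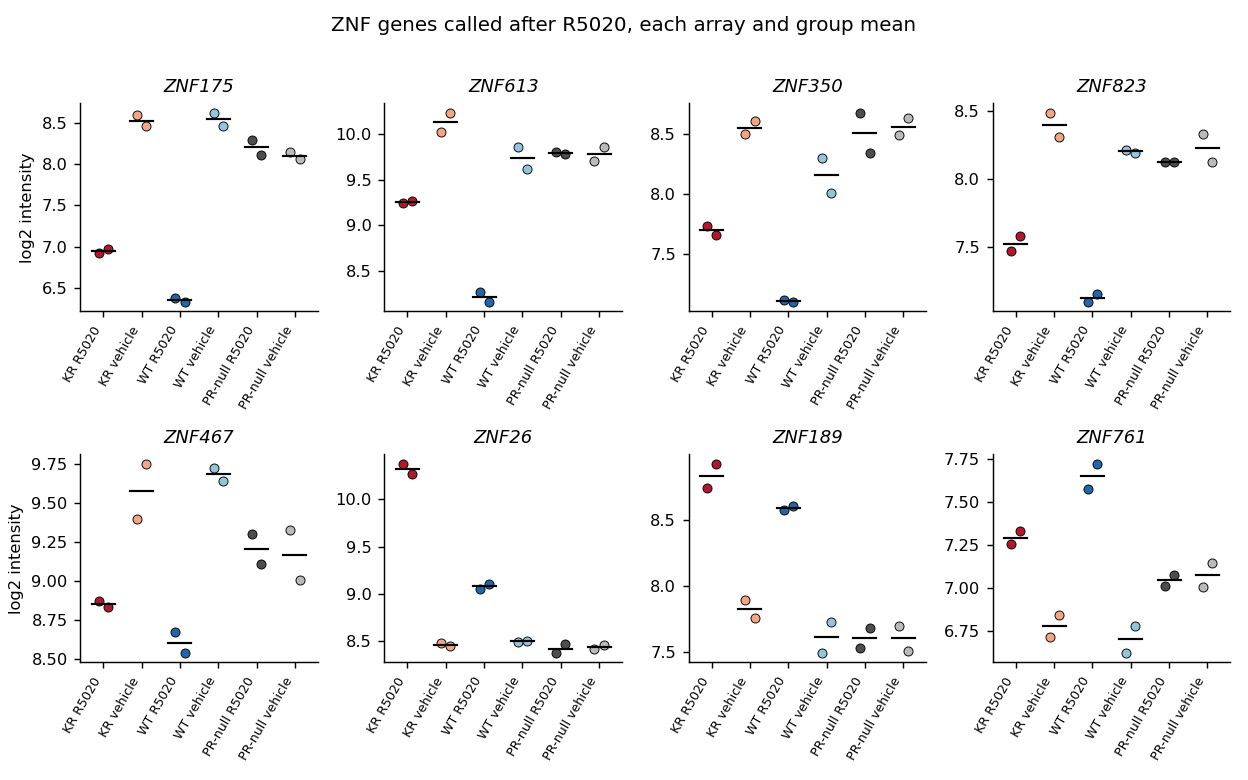
Log2 intensity of 8 ZNF genes called with R5020 in KR or WT cells, for KR, WT and PR-null cells, each with R5020 left of vehicle (points, arrays; bars, means of 2 arrays; each panel has its own axis). In ZNF175 the 4 R5020 arrays of KR and WT cells lie lowest, between 6.33 and 6.97, and in ZNF26 the KR arrays with R5020 stand alone at 10.27 and 10.38.

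R5020 in PR-null cells was the control for action without the receptor. By limma 0 of the 205 genes were higher and 0 lower, where 0% of all genes were higher and 0% lower. At an unadjusted p under 0.05, 4 were higher and 4 lower, and 173 of the 8019 other genes above 7 were higher and 140 lower. The differences ran between -0.34 (ZNF514) and 0.26 (ZNF217), and the smallest adjusted p was 0.953. Genes called in either receptor line had a difference of at most 0.26 in PR-null cells.

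The receptor lines were then compared. Of the 20 genes called in KR or WT cells, 7 were called in both, which is 70% of the KR calls and 41.2% of the WT calls. All 20 had the same sign in both lines, and 16 of them had the larger difference in WT cells. Over the 7 genes, the KR difference divided by the WT difference had a median of 0.722. More calls in WT cells were not particular to ZNF genes, since 797 of the 8019 other genes above 7 were called there and 608 in KR cells. Overlap, sign and ratio were not counted for the other genes, so these figures are a description of the ZNF genes only. The difference itself was called for 1 gene higher in KR cells, ZNF26, and 0 lower by limma, where 0.619% of all genes were higher and 0.389% lower. At an unadjusted p under 0.05, 13 ZNF genes were higher and 15 lower, and 615 of the 8019 other genes above 7 were higher and 636 lower. ZNF443, with -0.45 in KR cells and 0.26 in WT cells, had the most negative difference (-0.71, adjusted p = 0.0111), a gene singled out after its value was seen. Without KR R5020 replicate 1 the count of lower genes was 1. Over all 205 genes the KR and WT differences correlated across genes at a Pearson r of 0.80 and a Spearman rho of 0.75, as a description, since genes are not independent and the values share the scaling of the arrays.

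**Figure D3:**
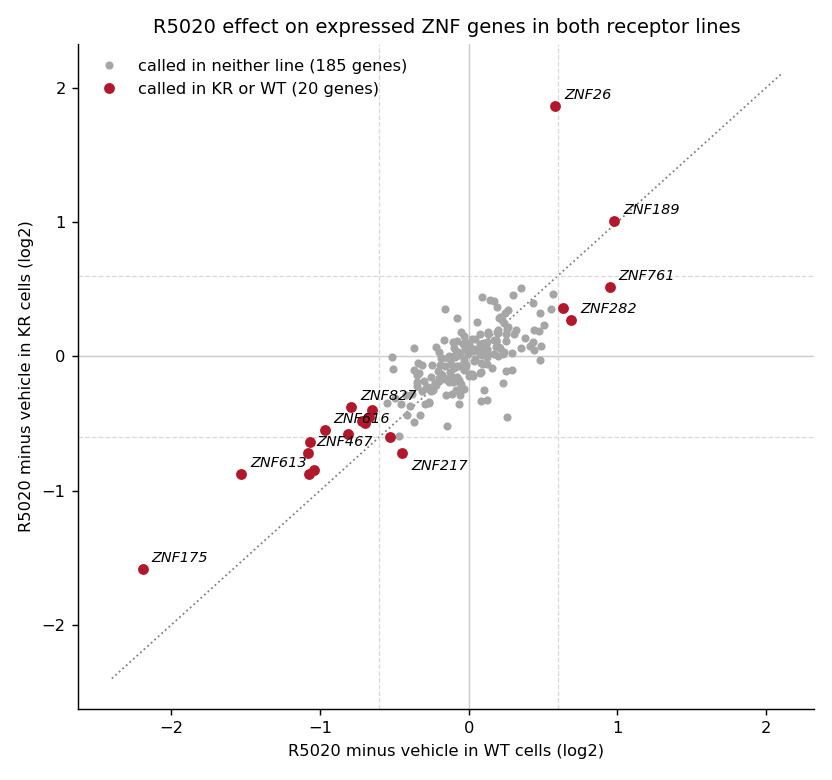
Log2 difference of R5020 minus vehicle for each of the 205 ZNF genes in KR cells (vertical) against WT cells (horizontal), with genes called in either line in red, dashed lines at the size of 0.6 and a dotted line of equal effect. The 20 red points lie at the lower left and upper right, where both differences have the same sign, and ZNF26 stands above the dotted line with 1.86 in KR cells and 0.58 in WT cells.

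Several of the falls came from genes that neighbour each other on chromosome 19. In the order of GRCh38.p14 in RefSeq, 8 ZNF genes of the array follow each other, ZNF613, ZNF350, ZNF615, ZNF614, ZNF432, ZNF841, ZNF616 and ZNF836, a run that was singled out after its values were seen. All but ZNF836 belong to the 205. Its mean was 6.93, lowered by its R5020 values, with vehicle means of 7.28 in KR cells and 7.07 in WT cells. In KR cells 3 of the 8 were called lower, and in WT cells 7. The median difference was -0.57 in KR cells (from -0.88 to -0.05), -0.89 in WT cells (from -1.53 to -0.34) and -0.01 in PR-null cells (from -0.10 to 0.12). Every gene of the run lay below 0 in both receptor lines. The exception to the WT calls was ZNF614, which read 7.58 and 7.81 with R5020 against 7.98 and 8.09 with vehicle (-0.34, adjusted p = 0.0543). ZNF836 fell by 0.67 in WT cells and differed by -0.38 in KR cells. Between KR and WT cells none of the 8 was called for the difference of the effects, although each had the more negative difference in WT cells. The number called lower in the run was 5 in KR cells without KR vehicle replicate 1, and 5 in WT cells without WT R5020 replicate 1.

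The genes at either side were not called. Before the run, ZNF577 differed by 0.04 in KR cells and 0.03 in WT cells, and ZNF649 by -0.18 in KR cells and -0.25 in WT cells. After it, PPP2R1A, a subunit of protein phosphatase 2A, differed by -0.13 in KR cells and -0.04 in WT cells, and ZNF766 by -0.12 in both. ZNF175 lies further before the run and is separated from it by genes such as the formyl peptide receptors FPR1, FPR2 and FPR3. Between them SPACA6, which is no ZNF gene, fell in WT cells (-0.77). Over windows of 10 neighbouring genes on the array, along all chromosomes with 20016 positioned genes, the highest number called lower in WT cells was 7, in 3 windows that overlap this run. In KR cells the highest number called lower was 3. Members of a ZNF cluster are similar in sequence, and whether a probe also reads a neighbour's transcript was not tested.

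**Figure D4:**
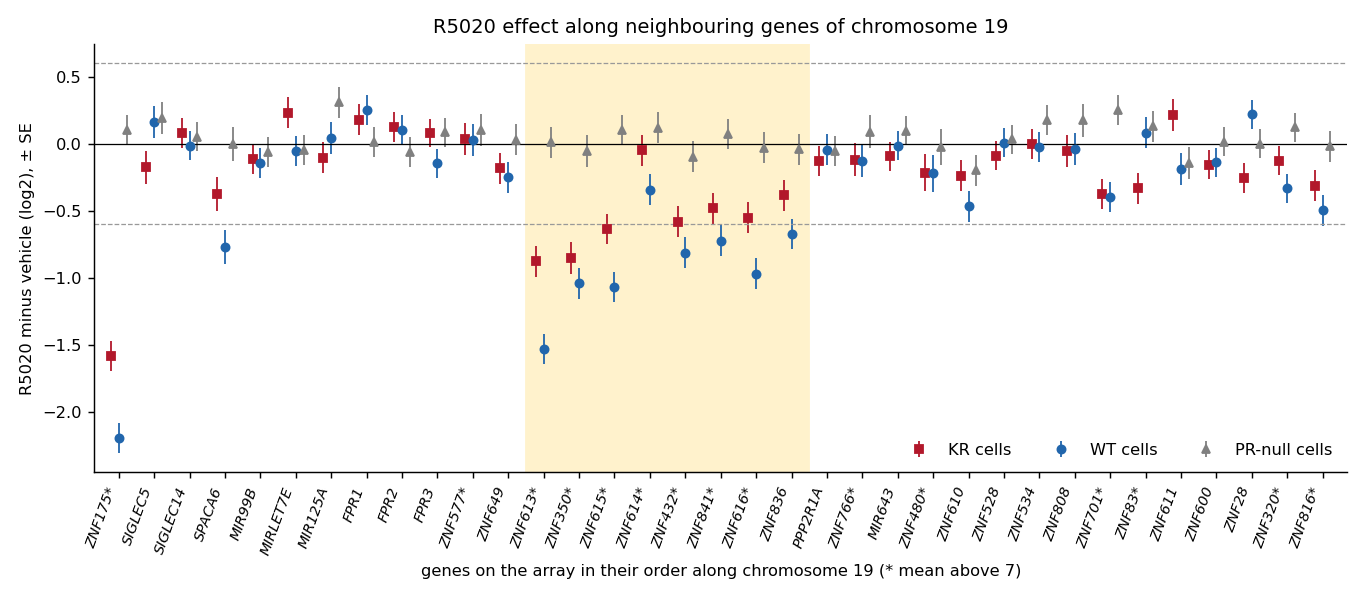
Log2 difference of R5020 minus vehicle (points) with its standard error (bars) for 35 genes of the array in their order along chromosome 19, in KR (red squares), WT (blue circles) and PR-null cells (grey triangles), with dashed lines at 0.6 in either direction and the run from ZNF613 to ZNF836 shaded. In the shaded run the WT points lie between -1.53 and -0.34, and outside it only ZNF175 and SPACA6 pass the lower dashed line.

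Promoters of these genes were read from RefSeq (GRCh38.p14), as the 250 bases before the start site that lies farthest upstream, for 177 of the 205 genes. The core of the progesterone response element (ACANNNTGT) was in 1.13% of these and in 4.68% of all 27305 promoters of the table, and in 0 of 13 genes called lower and 0 of 5 called higher. The element's half-site AGAACA, on either strand, was in 7.91% of the ZNF promoters, 12.4% of all promoters and 2 of the 13 promoters of genes called lower. The half-site ends in the letters that open the core, so the pair can share bases. Another word, ATGGCNGC on either strand, was noticed on reading the promoters of the run. It was in 16 of the 177 ZNF promoters (9.04%) and in 4.37% of all promoters. Of these 16, 7 lie in the stretch from ZNF175 to ZNF836 that supplied the word, so the 2 shares are not a fair comparison. Since the word was picked on this stretch, no count of it among called genes is given over the family. The sequences of the 4 genes of this stretch with the largest falls called in both lines follow, with this word in capitals, at chr19:51571033-51571282 (plus strand), chr19:51927222-51927471 (plus strand), chr19:51986841-51987090 (minus strand) and chr19:52008212-52008461 (minus strand).
ZNF175: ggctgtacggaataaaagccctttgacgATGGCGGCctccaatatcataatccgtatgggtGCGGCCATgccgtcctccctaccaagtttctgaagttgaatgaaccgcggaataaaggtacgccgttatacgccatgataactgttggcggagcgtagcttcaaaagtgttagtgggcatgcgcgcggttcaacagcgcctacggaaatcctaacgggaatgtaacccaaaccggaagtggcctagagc
ZNF613: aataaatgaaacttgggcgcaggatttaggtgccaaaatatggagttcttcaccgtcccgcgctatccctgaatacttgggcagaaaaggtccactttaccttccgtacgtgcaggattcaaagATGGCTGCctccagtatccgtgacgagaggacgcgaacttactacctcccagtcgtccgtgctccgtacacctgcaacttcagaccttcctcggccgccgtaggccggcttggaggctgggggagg
ZNF350: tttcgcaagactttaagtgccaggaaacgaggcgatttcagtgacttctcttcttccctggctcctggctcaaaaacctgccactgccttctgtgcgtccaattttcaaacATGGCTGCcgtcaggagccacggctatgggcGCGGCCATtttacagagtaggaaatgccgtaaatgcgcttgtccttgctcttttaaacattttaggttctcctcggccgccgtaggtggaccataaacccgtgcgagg
ZNF615: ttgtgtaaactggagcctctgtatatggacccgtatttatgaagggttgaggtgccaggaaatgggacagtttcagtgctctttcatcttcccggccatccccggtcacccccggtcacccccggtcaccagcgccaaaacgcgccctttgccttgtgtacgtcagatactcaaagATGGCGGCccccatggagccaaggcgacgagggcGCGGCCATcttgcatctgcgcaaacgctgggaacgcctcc

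The word and the call did not go together throughout this stretch. Of 10 promoters from ZNF175 to ZNF836 in the table, 7 held the word, and 5 of these 7 genes were called lower in WT cells. ZNF577 held it 2 times with a difference of 0.03, and ZNF614 held it 2 times with -0.34. The 3 promoters without it, of ZNF841, ZNF616 and ZNF836, belong to genes called lower in WT cells. A match of letters is a description and does not show that a protein binds there. The promoter of ZNF26 on chromosome 12 (chr12:132986117-132986366, plus strand), the gene whose response differed between KR and WT cells, held none of these words.
ZNF26: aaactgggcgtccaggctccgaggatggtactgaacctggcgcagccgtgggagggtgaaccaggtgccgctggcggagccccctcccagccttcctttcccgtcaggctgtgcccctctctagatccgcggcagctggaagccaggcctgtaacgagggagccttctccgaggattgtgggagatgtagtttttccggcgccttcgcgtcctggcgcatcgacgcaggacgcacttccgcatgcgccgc

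Few ZNF genes were called between a receptor line and PR-null cells without R5020, and all of these were higher in the receptor line. With vehicle, 2 genes were higher and 0 lower in KR than in PR-null cells, where 1.01% of all genes were higher and 1.59% lower. In WT cells 4 were higher and 0 lower, where 1.47% of all genes were higher and 1.69% lower. At an unadjusted p under 0.05, limma found 42 higher and 15 lower in KR cells and 37 higher and 15 lower in WT cells, against 1296 higher and 1315 lower in KR cells and 1525 higher and 1427 lower in WT cells among the 8019 other genes above 7. Among these other genes, lower calls outnumbered higher ones, with 156 higher and 234 lower in KR cells and 236 higher and 257 lower in WT cells. The higher calls were 0.976% of the ZNF genes in KR cells and 1.95% in WT cells, below the 1.95% and 2.94% of the other genes. The 0 lower calls stood against 2.92% of the other genes in KR cells and 3.20% in WT cells. The median difference was 0.05 in KR cells, where 64.9% of the ZNF genes lay above 0, against 0.01 and 51.6% for the other genes. In WT cells it was 0.02 with 56.1% above 0, against 0.01 and 51.3% for the other genes. Without PR-null vehicle replicate 1 the counts of higher genes were 4 in KR cells and 9 in WT cells.

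ZNF217 and ZNF296 were higher in both receptor lines. ZNF217 read 10.69 and 10.70 in KR and 10.61 and 10.66 in WT vehicle cells, against 9.81 and 9.76 in PR-null vehicle cells. It stood higher by 0.92 ± 0.117 in KR cells (adjusted p = 1.36e-07) and by 0.85 in WT cells (adjusted p = 5.36e-07), and R5020 brought lower values in both lines, as given above. ZNF296 read 9.45 and 9.40 in KR and 9.62 and 9.69 in WT vehicle cells, against 8.69 and 8.68 in PR-null vehicle cells. The log2 difference was 0.74 ± 0.110 in KR cells (adjusted p = 3.46e-06) and 0.98 in WT cells (adjusted p = 5.96e-09), with no call for R5020 in either line. ZNF770 read 9.14 and 8.90 in WT vehicle cells, against 8.29 and 8.40 in PR-null vehicle cells, a difference of 0.67 ± 0.116 that was 0.56 and not called without WT vehicle replicate 1.

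KR and WT cells differed in few ZNF genes. With vehicle, 1 gene was higher and 1 lower in KR than in WT cells, where 0.374% of all genes were higher and 0.479% lower. ZNF512 read 8.47 and 8.26 in KR vehicle cells, against 9.06 and 9.03 in WT vehicle cells (-0.68 ± 0.115, adjusted p = 0.000147). The KR arrays lay near the PR-null vehicle arrays at 8.28 and 8.28, and without KR vehicle replicate 2 the difference was -0.57 and was not called. ZNF789 read 8.85 and 8.98 in KR vehicle cells, against 8.21 and 8.39 in WT vehicle cells (0.61 ± 0.114, adjusted p = 0.000645), and was not called without KR vehicle replicate 2 (0.55) or without WT vehicle replicate 1 (0.52), after normexp background correction (0.59) or with the mean of all probes (0.29). Its other 2 probes, at means of 6.76 and 6.41, gave 0.03 and 0.21.

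With R5020, 3 ZNF genes were higher and 2 lower in KR than in WT cells, where 1.2% of all genes were higher and 1.36% lower. ZNF26 (1.25) and ZNF613 (1.05) were the highest of these, and with the mean of all probes ZNF613 gave 0.46 and was not called. ZNF91, a KRAB protein known for repressing SVA retrotransposons, read 8.62 and 8.61 in KR cells with R5020, against 7.89 and 7.98 in WT cells with R5020. It was higher by 0.68 ± 0.116 (adjusted p = 5.54e-05), beside a vehicle difference of 0.48 (adjusted p = 0.0148). ZNF512 (-0.76 ± 0.115) and ZNF275 (-0.70 ± 0.109) were lower. ZNF275 read 8.05 and 8.07 in KR cells with R5020, against 8.79 and 8.72 in WT cells with R5020, with a second probe under the background limit at a mean of 5.52, and with the mean of both probes the difference was -0.37 and was not called. Without KR R5020 replicate 1 the counts were 6 higher and 4 lower, and without WT R5020 replicate 2 there were 4 lower.

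**Figure D5:**
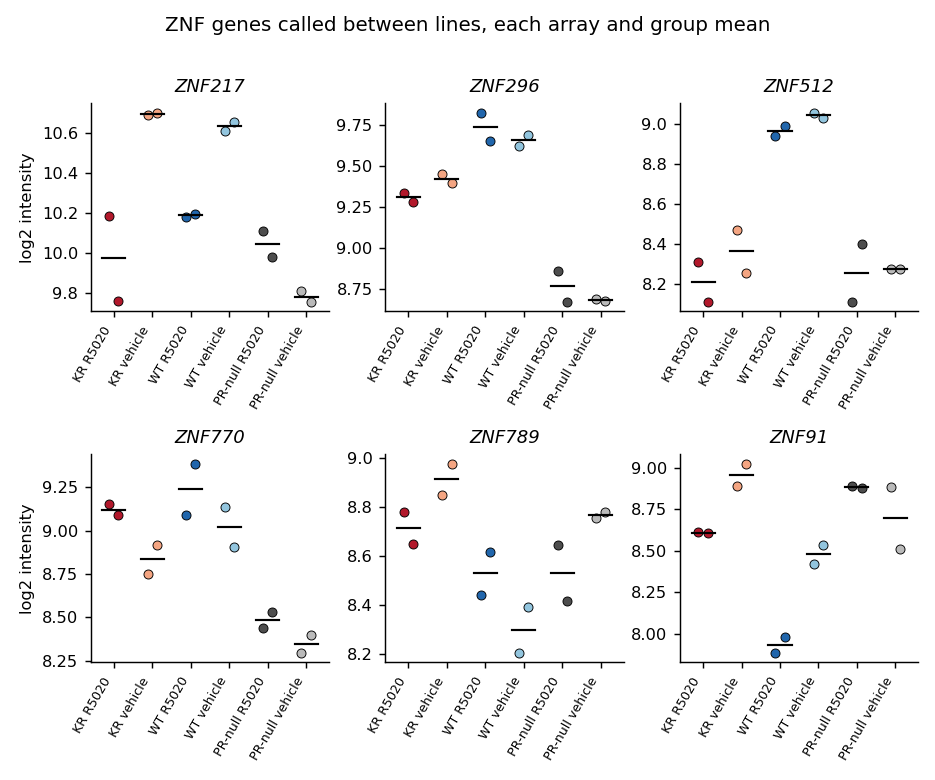
Log2 intensity of 6 ZNF genes called between lines, for KR, WT and PR-null cells, each with R5020 left of vehicle (points, arrays; bars, means of 2 arrays; each panel has its own axis). In ZNF296 the 8 arrays of KR and WT cells, at 9.28 to 9.83, lie above the 4 PR-null arrays, and in ZNF512 the 4 WT arrays lie above the rest.

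Over the 8 comparisons 26 of the 205 genes were called at least once and 179 never. The matching share of other genes was not counted, so these numbers are not read as many or few. The genes with the brightest probes, ZNF674 (13.91), ZNF430 (12.15), ZNF185 (11.20), ZNF486 (11.13) and ZNF549 (10.93), were among the uncalled, and brightness of different probes is no measure of relative transcript number. Of 23 measured ZNF genes with known roles that had been listed, 15 belong to the 205. ZNF217 and ZNF350 were the only ones of these called with R5020. Among the rest, ZNF281, a transcription factor linked to epithelial-mesenchymal transition, differed by -0.52 in KR cells (adjusted p = 0.0031) and -0.15 in WT cells, ZNF598 by 0.32 in KR cells and 0.48 in WT cells, and ZNF207 by 0.06 in KR cells and -0.37 in WT cells. ZNF274, which brings SETDB1 to ZNF genes, and ZNF143, which binds promoters and chromatin loop anchors, differed by less than 0.3 in both lines. The listed ZNF268, at a mean of 6.72, was higher in KR than in PR-null vehicle cells (0.63) and is no member.

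The corepressors that KRAB proteins work with were listed as well. Of 17 genes measured, 0 were called in KR cells by limma and 1 was higher in WT cells, UHRF1, which guides maintenance DNA methylation (0.85 ± 0.117, adjusted p = 1.47e-07). TRIM28 differed by -0.16 in KR cells and -0.14 in WT cells, and SETDB1 by -0.16 in KR cells and -0.18 in WT cells. None of 5 measured genes of the HUSH complex and MORC family was called in either line. In the other zinc finger families, 36 ZBTB genes gave 1 higher and 1 lower in each line, namely ZBTB16, or PLZF, which rose by 2.58 in KR cells and 1.56 in WT cells, and ZBTB42 (-0.65 in KR cells and -0.70 in WT cells). ZSCAN31 fell by 1.07 in WT cells and was the only one called of 15 ZSCAN genes, and none of 7 ZKSCAN or 18 ZFP genes was called with R5020 in either line.

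The choice of 7 as the level also decided which ZNF genes were counted. ZNF57, at a mean of 6.91, was named after its values were seen. It read 7.37 and 7.38 in KR cells with R5020, against 6.51 and 6.59 with vehicle, and 8.10 and 7.96 in WT cells with R5020, against 6.37 and 6.27 with vehicle. It rose by 0.82 ± 0.110 in KR cells and 1.71 in WT cells, the largest WT rise of any ZNF gene of the array called with R5020. With the level set at 6.5, 8 ZNF genes were higher in WT cells in place of 4.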

How the data were processed

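Gene expression was measured on 12 Illumina HT-12v4 bead arrays. The deposited values are log2 intensities, which the authors obtained in lumi, after a log2 transformation, through quantile normalization. They were used as deposited. A table of non-normalized signals has 12 intensity columns with codes not tied to a sample, and was not used. All 47231 probes were fitted in limma 3.58.1 (R 4.3.3) with a mean for each of the 6 groups, a procedure tested on simulated data, with Benjamini-Hochberg adjustment over all probes in each of 8 comparisons. The brightest probe stood for its gene, and 30113 probes carried 1 gene symbol. All 205 genes were matched in RefSeq by identifier. The background limit was the 95th percentile of 437 olfactory receptor probes.

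The members and lists were chosen with earlier results of these data known. Named genes were the 10 largest rises and falls called with R5020 in each receptor line, all called in the difference, 6 in each direction between lines, the 5 brightest, those next to the level of 7, and listed genes. Across 15 pairs of groups, arrays sharing a replicate number had deviations that correlated between -0.0468 and 0.0814 (12587 probes), so the numbers were taken not to pair the samples. Alternatives changed the normalization, background correction, probe filter, centring, variance trend, probe choice, thresholds, level and replicates. Protein sequences were not used here, so domains and finger counts were not analysed.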

Additional observations from a re-analysis of the deposited data

Results flagged for a closer look

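ZNF26 was flagged because the R5020 effects of the KR and WT lines differed by a test of the difference itself. The effect was 1.28 log2 units larger in KR cells (adjusted p = 2.05e-07), with 1.86 in KR cells and 0.58 in WT cells, and both KR arrays with R5020 lay above both WT arrays. It was measured by 1 probe, and the labels do not name the clones used for each receptor. With R5020 the PGR signal was also higher in KR than in WT cells, and its part in this difference was not tested.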

How the results depend on the processing

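Among calls on named genes, no direction reversed under any alternative run. Uncalled differences of named genes are not covered by this statement. Of 41 calls on these genes, 25 were kept with every left-out array and every alternative other than the changed thresholds and levels. The rest include those named in the report. The changed thresholds and levels are given below as counts of genes only. With an adjusted p under 0.05 and no minimum difference, R5020 called 13 ZNF genes higher and 24 lower in KR cells and 19 higher and 31 lower in WT cells, or 6.34% and 11.7% of them in KR cells and 9.27% and 15.1% in WT cells, against 9.53% and 8.55% in KR cells and 13.1% and 12.3% in WT cells among the other genes above 7. The same rule gave 3 higher and 1 lower for the difference of the effects, 18 higher and 3 lower between KR and PR-null vehicle cells, and 18 higher and 7 lower between WT and PR-null vehicle cells. It gave 5 higher and 3 lower between KR and WT vehicle cells, and 14 higher and 13 lower between KR and WT cells with R5020. With a difference over 1 required, 1 was lower in KR cells, 0 were higher and 6 lower in WT cells, 0 were higher between either receptor line and PR-null cells with vehicle, 0 were higher and 0 lower between KR and WT cells with vehicle, and 0 were lower between them with R5020. A level of 8 gave 5 lower in KR cells and 2 higher and 6 lower in WT cells. A level of 6.5 gave 8 higher in WT cells, 1 lower for the difference, and 4 lower between KR and WT cells with R5020. The mean of all probes gave 1 higher in KR cells, 0 higher between KR and WT vehicle cells and 1 lower between them with R5020. Normexp background correction gave 2 higher and 1 lower for the difference and 0 higher between KR and WT vehicle cells. The filter on dim probes and the variance trend each gave 1 lower for the difference.

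With 1 array left out, where the lone array of its group is assumed to vary like the others, higher genes numbered 2 to 6 in WT cells with R5020, 2 to 4 and 4 to 9 between vehicle KR or WT and PR-null cells, 0 to 2 between KR and WT vehicle cells and 4 to 6 between them with R5020. Lower genes numbered 0 to 1 for the difference, 0 to 1 between KR and WT vehicle cells and 2 to 4 with R5020. With replicate number as a block, the called genes were the same in all comparisons, 10 in KR and 17 in WT cells with R5020. The median of the ZNF genes moved to 0.002 in KR cells after cyclic loess and to 0.003 in both lines after centring, so its sign depended on the scaling. Slide could not be used as a block because it is not tied to samples here.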
